A study of Mus musculus with 6 samples.

Results

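The oxidative phosphorylation genes were described here by respiratory complex and by the genome that encodes them. Members were rows of the gene table chosen by symbol. Taken were symbols that begin with Nduf plus a, b, c, s or v, or with Uqcr, Cox4 to Cox8 or Atp5. Sdha, Sdhb, Sdhc and Sdhd were also taken, and symbols of mt- with the name of a respiratory subunit. Cox7a1 and Cox8b were left out. The members were 109 of the 55487 rows, 96 nuclear-encoded and 13 mitochondrially encoded (Atp5o has a second row, which was at 0 in every library). The nuclear rows held 76 subunit rows, 8 assembly factors of complex I (Ndufaf genes) and Cox7a2l, a factor of respiratory supercomplexes. The other 11 were paralogues, gene copies or isoforms of restricted expression. Among these 11, Ndufa11b, Ndufb4c, Ndufs6b and Cox6c2 are annotated as processed pseudogenes. Ndufb4 has no symbol in the table and Dmac2l carries a newer name than the Atp5 prefix, so neither was a member. Cyc1, cytochrome c1 of complex III, does not match the symbols taken and was not a member either.

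RNA of the aorta was sequenced from 6 libraries, after the adventitia had been stripped so that media and intima remained. The 3 libraries of the ChemR23 group came from recipients labelled Apoe-/-►ChemR23e/eApoe-/-, which received marrow lacking Apoe only. The 3 control libraries came from recipients labelled Apoe-/-►Apoe-/-. All recipients lacked Apoe, the apolipoprotein whose loss raises plasma cholesterol, and all were transplanted, at 8 to 10 weeks of age, so that every control also carries a transplant. After 4 weeks of recovery, all animals ate a Western diet with 21% fat and 0.15 to 0.2% cholesterol for 6 weeks. ChemR23 is the chemerin receptor encoded by Cmklr1, and the deficiency was meant for the non-haematopoietic cells, so marrow-derived cells of both groups carry the receptor gene. The labels do not say whether a library is 1 animal or a pool, so the p-values measure the spread between these samples, which may be technical.

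Oxidative phosphorylation takes electrons from NADH (complex I) and succinate (complex II) through ubiquinone, complex III, cytochrome c and complex IV to oxygen. Complexes I, III and IV pump protons across the inner mitochondrial membrane, and complex V, the ATP synthase, uses their return to make ATP. Complexes I, III, IV and V combine subunits encoded in the nucleus with a few from mitochondrial DNA, whereas complex II is wholly nuclear-encoded. Brown adipocytes, which lie in the fat around the aorta, are rich in mitochondria.

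Library facts that touch these genes were as follows. The libraries held 30887855 to 38600604 reads assigned to genes. Smooth muscle markers were abundant in all of them, with a summed normalized count of 1275090 to 1713282 over 6 genes, and endothelial markers summed to 60632 to 88049 over 5 genes. The targeted gene, Cmklr1, had normalized counts of 2388, 1788 and 1551 in the ChemR23 group and of 1396, 1028 and 1720 in the controls. The groups overlapped and the ChemR23 group was not lower, so its reads do not check the labels, and the group is called "labelled ChemR23-deficient" below. The Y-linked gene Ddx3y was at 8.54 and 0 in replicates 1 and 2 of that group and at 6058 to 6796 in the other 4 libraries, so sex as read from the data differed within that group. Macrophage markers (7 genes) summed to 11719 to 37865 in the labelled ChemR23-deficient libraries and to 9638 to 12321 in the controls. Erythroid markers (5 of 6 listed were in the table) summed to 695 to 4799 against 42644 to 129938, and neutrophil markers (5 genes) to 136 to 204 against 447 to 1073. The part of these differences in the results below was not tested. In bulk tissue, fewer cells of a type and less RNA per cell cannot be told apart.

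Sequence shared with other places in the genome can limit how well a gene is measured, so it is shown first. Copies of mitochondrial DNA lie in the nuclear genome, where 7 annotated pseudogenes fall within chr1:24611535-24616197 (GRCm38). Over its 681 aligned bases the pseudogene Gm28661 was identical to mt-Co2, the second subunit of complex IV. The first 90 bases of each are printed to show that a short read from there fits both places, with no capitals because no base differs.

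mt-Co2, chrM:7013-7102, plus strand: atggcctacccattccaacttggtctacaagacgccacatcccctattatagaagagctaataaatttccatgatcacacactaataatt
Gm28661, chr1:24615476-24615565, minus strand: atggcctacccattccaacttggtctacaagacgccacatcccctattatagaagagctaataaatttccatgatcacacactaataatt

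The copy of mt-Co1 on chromosome 2, Gm13340, differs at 37 of 1545 bases. The first 90 bases of both hold 3 of these differences, in capitals, and are printed to show a copy that many reads can be told from.

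mt-Co1, chrM:5328-5417, plus strand: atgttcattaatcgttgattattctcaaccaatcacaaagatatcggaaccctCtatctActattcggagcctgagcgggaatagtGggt
Gm13340, chr2:22589558-22589647, minus strand: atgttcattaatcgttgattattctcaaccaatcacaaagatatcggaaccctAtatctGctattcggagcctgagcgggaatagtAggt

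The other pseudogenes on chromosome 1 were Gm28437 for mt-Co3 (783 of 783 bases identical), Gm10925 for mt-Atp6 (678 of 678), Gm28438 for mt-Nd3 (344 of 345), Gm10222 for mt-Nd4l (294 of 294), Gm28439 for mt-Nd4 (876 of 876) and Gm29216 for mt-Co1 (486 of 492). The share of all 50-base windows of a gene's transcript that also occurred in another annotated gene was 100% for mt-Co2, 99.9% for mt-Co3, 99.5% for mt-Atp6, 98.8% for mt-Nd4l and 98.0% for mt-Nd3. It was 62.2% for mt-Nd4, 51.1% for mt-Co1, 8.19% for mt-Nd2, 7.61% for mt-Nd5 and 0% for mt-Nd1, mt-Cytb, mt-Nd6 and mt-Atp8. The window is as long as a read.

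The 13 mitochondrial genes encode 7 subunits of complex I (mt-Nd1 to mt-Nd6 with mt-Nd4l), cytochrome b of complex III, the catalytic core of complex IV (mt-Co1 to mt-Co3) and 2 subunits of the proton channel part of complex V. Their transcripts are made as long polycistronic RNAs, so genes on the same strand share their transcription. Mean normalized counts per kilobase of exon over the 6 libraries were 356690 for mt-Co1, 242566 for mt-Cytb, 181458 for mt-Nd1, 137729 for mt-Nd2, 84766 for mt-Nd5 and 63784 for mt-Nd4. On the same per-kilobase scale mt-Nd6, the only one of these genes on the minus strand, stood at 3340. The others were lower again, with 1351 for mt-Co2, 846 for mt-Co3, 765 for mt-Nd3, 385 for mt-Atp8, 338 for mt-Atp6 and 213 for mt-Nd4l. The 5 genes with over 95% of windows shared were thus all among the 6 lowest. The sixth, mt-Atp8, lies between mt-Co2 and mt-Atp6 and had no window shared with an annotated gene. Windows were compared with annotated transcripts only. The stretch of chromosome 1 between Gm10925 and Gm28661 (24614651 to 24614885) was therefore not compared with mt-Atp8. The sources used here do not say how the counting treated reads with several positions, so a low count of these 6 genes is not a measure of their RNA. The counts of these 6 genes can still be compared between libraries, with that limit. Whether shared sequence lowered any of them was not tested.

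**Figure D1:**
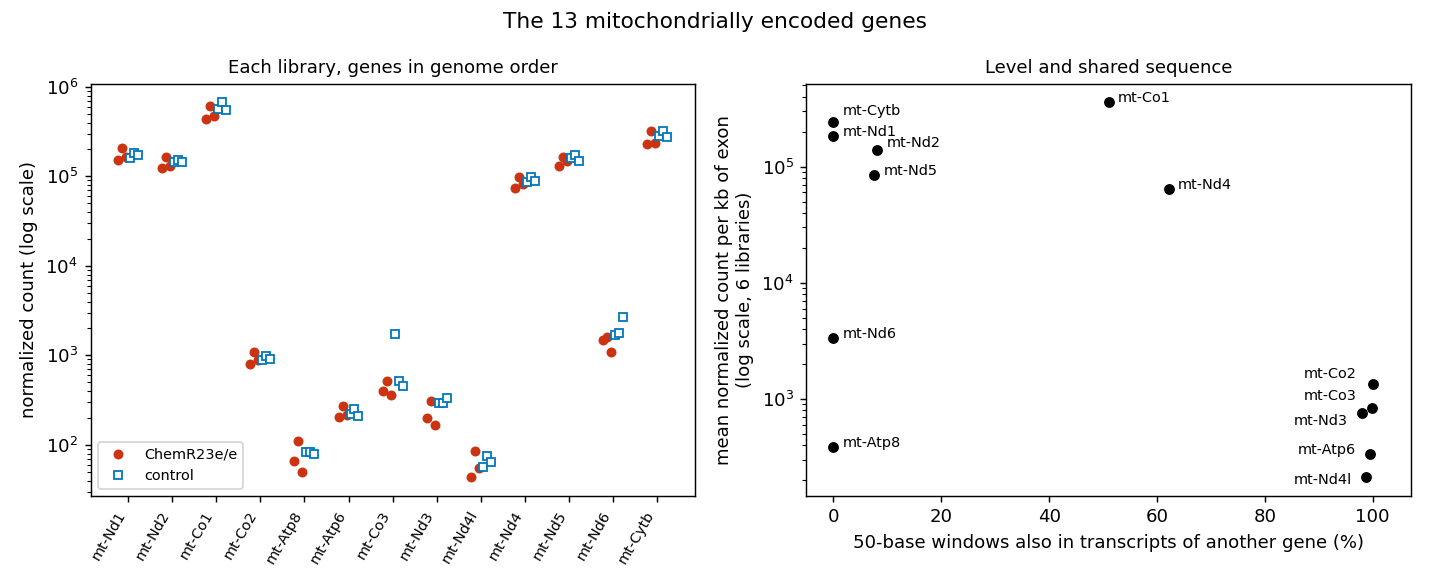
Left, normalized counts (log scale) of the 13 mitochondrially encoded genes in genome order, with filled circles for the 3 labelled ChemR23-deficient and open squares for the 3 control libraries. Right, the mean normalized count per kilobase of exon (log scale) against the percentage of 50-base windows shared with another annotated gene; the 5 genes above 95% lie between 213 and 1351.

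None of the 13 mitochondrial genes was called different between the groups. Calls here are from limma on log2(normalized count + 1) at an adjusted p under 0.05, and over the whole table they took 28 of 20669 genes (0.135%; 15 higher, 0.0726%, and 13 lower, 0.0629%). Of the 13, 11 had a log2 difference (labelled ChemR23-deficient minus control) below 0 and 2 above, with a median of -0.14 beside -0.01 over all genes tested. The range was -0.81 to 0.01. With replicate 2 of both groups left out, the median was -0.27, and without labelled ChemR23-deficient replicate 2 alone it was -0.34.

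mt-Nd6, a complex I subunit of the membrane arm (chrM:13552-14070, minus strand, ENSMUSG00000064368), stood at 1501, 1615 and 1098 in the labelled ChemR23-deficient libraries and at 1700, 1801 and 2686 in the controls. The groups did not overlap, the 3 labelled ChemR23-deficient values lying below all controls, and control replicate 3 was the highest. The log2 difference was -0.54 (SE 0.20, 95% interval -1.01 to -0.08), and limma's adjusted p was 0.340. When each library was left out in turn, the difference ranged from -0.67 to -0.34. The value nearest 0 was without control replicate 3 (SE 0.17, limma adjusted p 0.560). In all 6 libraries the unadjusted p of mt-Nd6, 0.028 (limma), was the only one under 0.05 among all members. Its annotated exon overlaps that of the more abundant mt-Nd5 by 14 bases on the other strand. The strand setting is not stated, so whether RNA of the other strand was counted with mt-Nd6, there or elsewhere along the gene, cannot be told.

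mt-Nd3, another membrane-arm subunit of complex I, stood at 201, 312 and 165 against 291, 296 and 332. The groups overlapped through labelled ChemR23-deficient replicate 2. The log2 difference was -0.49 (SE 0.22, limma adjusted p 0.440), and 98.0% of its windows are shared with Gm28438.

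mt-Co3, the third core subunit of complex IV, stood at 397, 521 and 365 against 1724, 516 and 455. Control replicate 1 lay far above the other 5 libraries, which overlapped between the groups. The log2 difference was -0.81 (SE 0.46, limma adjusted p 0.539), and -0.20 (SE 0.17, limma adjusted p 0.794) without that library. The abundant mt-Co1, the subunit that binds oxygen, was at 440164, 612544 and 475376 against 561073, 671535 and 545822. Replicate 2 was highest in each group and the groups overlapped, with a log2 difference of -0.23 (SE 0.17, limma adjusted p 0.652). Cytochrome b, mt-Cytb, gave -0.18 (SE 0.16, limma adjusted p 0.697).

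Among the remaining mitochondrial genes the log2 differences were 0.01 for mt-Nd1, -0.09 for mt-Nd2, -0.11 for mt-Nd4, -0.14 for mt-Nd4l and -0.14 for mt-Nd5. They were -0.03 for mt-Co2, 0.01 for mt-Atp6 and -0.20 for mt-Atp8. These 8 had limma adjusted p values of 0.695 to 0.992. Together the 13 genes took 3.47, 4.61 and 3.59% of all normalized counts in the labelled ChemR23-deficient libraries and 4.24, 4.68 and 4.17% in the controls. The groups overlapped, with labelled ChemR23-deficient replicates 1 and 3 below every control. The nuclear-encoded subunits took 0.736, 0.876 and 0.682% against 0.728, 0.933 and 0.725%. The ratio of mitochondrial to nuclear counts was 4.71, 5.26 and 5.27 against 5.83, 5.01 and 5.74, and control replicate 2 lay within the range of the other group.

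None of the nuclear-encoded members was called either, in limma, DESeq2 or edgeR, and none had an unadjusted limma p under 0.05. Of the 109 rows, 103 reached a mean normalized count of 1 and were tested, 90 of them nuclear. The 6 that did not were the second Atp5o row, Cox6c2, Cox7b2, Cox8c, Ndufa11b and Ndufb11b. At an unadjusted p under 0.05, 1 of 103 members stood beside 12.2% of all genes, and groups that did not overlap were seen in 2 members (mt-Nd6 and Ndufaf1, 1.94%) beside 17% of all genes (8.8% higher and 8.24% lower). The lowest adjusted p among the members was 0.340 in limma, 0.099 in DESeq2 and 0.365 in edgeR, each for mt-Nd6. Without labelled ChemR23-deficient replicate 3, limma called 434 of 20691 genes (2.1%), none of them a member. DESeq2 called 713 of 16291 genes with an adjusted p (4.38%) and edgeR 1 of 15196 (0.00658%). In the authors' deposited table, 0 of the 100 members with an adjusted p, and 691 of 15771 rows in all, were under 0.05.

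The intervals show what size of difference was covered. The 95% interval lay within 1 log2 unit of 0 for 97 of 103 members and within 1.5-fold for 85. Among the 75 nuclear subunits tested these counts were 75 and 70, while over all 20669 genes they were 12206 and 9525. The median SE was 0.145 for the members and 0.194 for all genes.

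**Figure D2:**
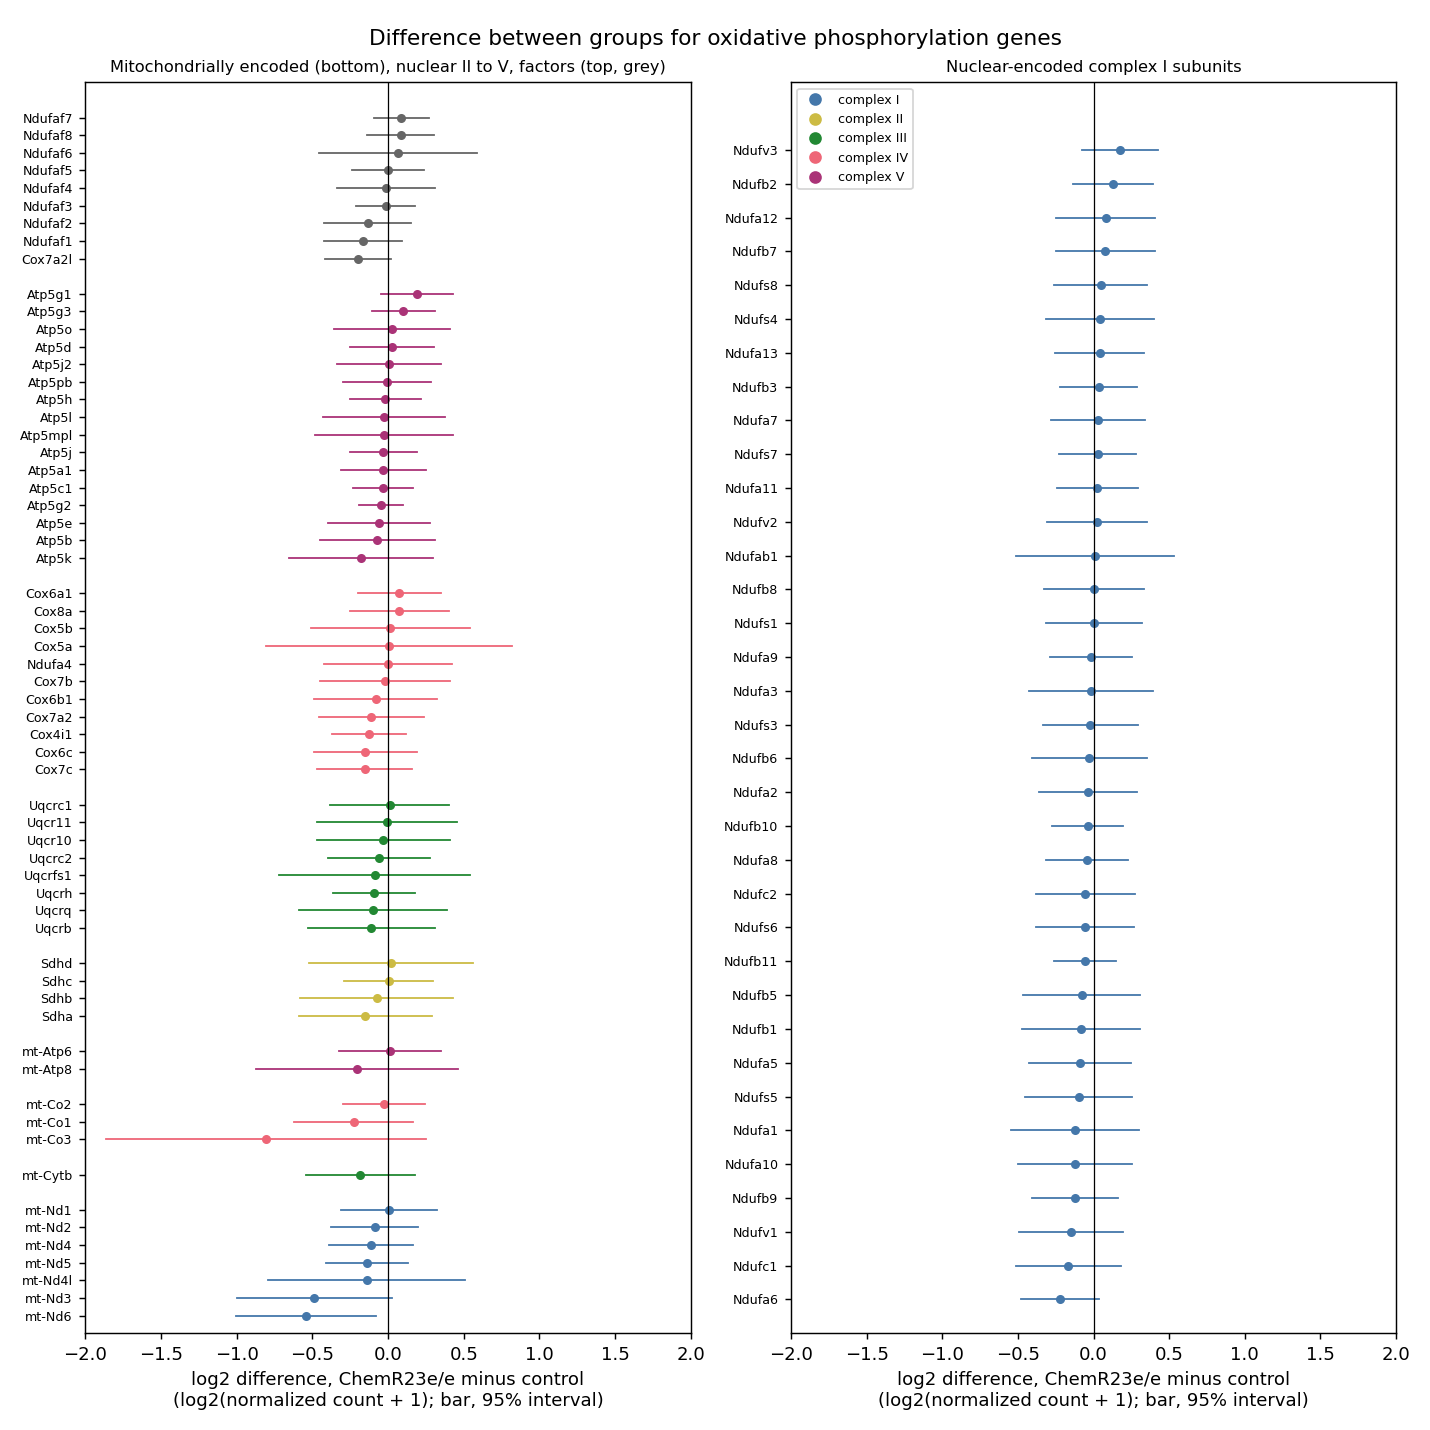
Log2 difference between the groups (labelled ChemR23-deficient minus control; point) with its 95% interval (bar) for the tested subunits shown, the complex I assembly factors and Cox7a2l, coloured by complex. The nuclear subunits shown have intervals within 1 log2 unit of 0, and mt-Nd6 is the only gene whose interval does not reach 0.

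The 36 nuclear subunits of complex I had a median log2 difference of -0.02, 15 above 0 and 21 below, and all intervals lay within 1.5-fold. Ndufs1, an iron-sulphur subunit of the matrix arm, stood at 3186, 3960 and 3464 against 3381, 4279 and 3014, with overlapping groups and a log2 difference of 0.00 (SE 0.14). Ndufv1, the NADH-binding subunit, gave -0.15 (SE 0.15, limma adjusted p 0.740). Ndufs8, which carries iron-sulphur clusters, gave 0.05.

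Ndufa6, an accessory subunit (chr15:82350140-82354322, minus strand, ENSMUSG00000022450), had the lowest p of the nuclear complex I subunits. It stood at 2494, 3091 and 2363 against 2815, 3300 and 3107. Only labelled ChemR23-deficient replicate 2 reached into the control range, and the log2 difference was -0.22 (SE 0.11, limma adjusted p 0.490). Ndufv3, an accessory subunit of the NADH-oxidizing module, lay the other way, at 3435, 3665 and 2858 against 2724, 3221 and 2843. Its groups overlapped, with a log2 difference of 0.18 (SE 0.11, limma adjusted p 0.576), and in the libraries with Y-linked expression alone it was -0.03.

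The 8 assembly factors of complex I, which help build the enzyme and are not part of it, had log2 differences from -0.17 to 0.09 with 4 on each side of 0. Ndufaf1, which assists the membrane arm (chr2:119655446-119662827, minus strand), stood at 356, 433 and 434 against 441, 482 and 446. The groups did not overlap, the labelled ChemR23-deficient values being lower, yet the gap was narrow. The log2 difference was -0.17 (SE 0.11, limma adjusted p 0.611). Ndufaf7, a methyltransferase, gave 0.09.

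Complex II, succinate dehydrogenase, also serves the tricarboxylic acid cycle. Its flavoprotein Sdha stood at 7098, 9200 and 7270 against 8110, 11644 and 6856, with replicate 2 highest in each group and a log2 difference of -0.15 (SE 0.19, limma adjusted p 0.809). The iron-sulphur subunit Sdhb gave -0.08, and the membrane anchors Sdhc and Sdhd gave 0.01 and 0.02. Sdhd, at 2665, 3833 and 2366 against 2671, 3908 and 2215, varied 1.76-fold between the highest and the lowest library, the widest range of the 4.

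The 8 nuclear subunits of complex III among the members, which leave out Cyc1, had a median log2 difference of -0.07, 7 of them below 0. The Rieske iron-sulphur protein Uqcrfs1 stood at 1418, 2412 and 1444 against 1639, 2620 and 1379, with a difference of -0.09 (SE 0.27, limma adjusted p 0.935). Replicate 2 of each group was far above the other 2 libraries. The core proteins Uqcrc1 and Uqcrc2 gave 0.01 and -0.06, the hinge protein Uqcrh -0.09 and Uqcrb, which helps bind ubiquinone, -0.11.

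The 11 nuclear subunits of complex IV had a median of -0.02, from -0.15 to 0.08. Cox4i1, the ubiquitous form of the regulatory subunit, stood at 8835, 10100 and 8294 against 9344, 11244 and 9154, with overlapping groups and a difference of -0.13 (SE 0.11, limma adjusted p 0.695). Cox5a, which binds the matrix side of the core, stood at 928, 1710 and 891 against 887, 1878 and 832. Replicate 2 of both groups stood apart, the other 4 libraries were close together, and the log2 difference was 0.01 (SE 0.35). Its 2.26-fold range between libraries was the widest of the nuclear subunits.

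Cox7a2l, which joins complexes III and IV into supercomplexes (chr17:83501918-83517330, minus strand), had the lowest p of the nuclear members. It stood at 4146, 4322 and 3501 against 4777, 4268 and 4656. The groups overlapped by 1 library each, and the difference was -0.20 (SE 0.09, limma adjusted p 0.452). Its paralogue Cox7a2, the common subunit, gave -0.11 (SE 0.15). Unlike Cox7a2 it was not highest in replicate 2 of the controls.

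Isoforms known from other tissues or conditions were at low levels. On the per-kilobase scale Cox4i2, a form known from lung and hypoxic cells, made 1.33 to 2.86% of the sum of Cox4i1 and Cox4i2 over the 6 libraries. Cox6b2, best known from testis, made 1.26 to 2.43% of the sum with Cox6b1, and Ndufa4l2, a hypoxia-induced paralogue of Ndufa4, 0.674 to 1.41% of the sum with Ndufa4. The muscle form Cox6a2 made 0 to 0.122% of the sum with Cox6a1. Cox6b2 gave a log2 difference of -0.39 (SE 0.24, limma adjusted p 0.573) with overlapping groups. Cox7b2 and Cox8c were at 0 in every library.

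The 16 tested nuclear subunits of complex V had a median of -0.03. Atp5b, the catalytic beta subunit and the most highly counted nuclear member, stood at 18035, 22419 and 19445 against 19686, 26932 and 17164, with overlapping groups and a difference of -0.07 (SE 0.16, limma adjusted p 0.908). Atp5a1, the alpha subunit, gave -0.03 (SE 0.12). Atp5k, a subunit of the membrane part, gave the lowest value of these nuclear subunits, -0.18 (SE 0.21, limma adjusted p 0.781).

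The c subunit, which forms the proton-carrying ring, is made from 3 genes that encode the same mature protein. Atp5g1 stood at 2252, 2155 and 2165 against 1655, 2184 and 1956, with overlapping groups and a difference of 0.19 (SE 0.10, limma adjusted p 0.516). Atp5g2 was the steadiest nuclear subunit, at 2424, 2474 and 2414 against 2420, 2603 and 2533, a 1.08-fold range, and 38.3% of its windows are shared with other genes. Of the summed c subunit counts, Atp5g3 made 51.7 to 55.4%, Atp5g2 23.8 to 27.7% and Atp5g1 18.9 to 22.5% over the 6 libraries.

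**Figure D3:**
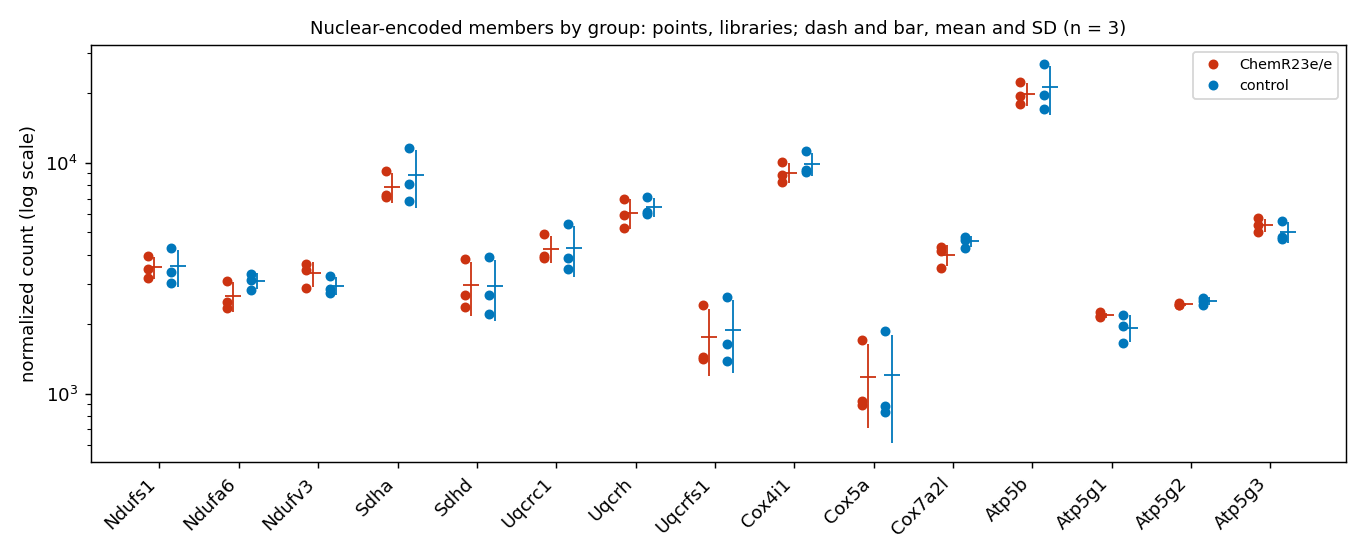
Normalized counts (log scale) of 15 nuclear-encoded members, with a point per library and a dash and bar for the mean and SD of each group (n = 3). For Cox5a, Sdhd and Uqcrfs1 a single point of each group stands above the other points; Atp5g2 spans the narrowest range.

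The pattern that ran through most members was a difference between libraries within each group. Replicate 2 was the highest library of its own group in both groups for 74 of the 75 nuclear subunits tested (98.7%), beside 3703 of 20669 genes (17.9%). The exception was Atp5g1. It held for 10 of the 13 mitochondrial genes, the exceptions being mt-Co3, mt-Nd3 and mt-Nd6, and for 4 of the 8 assembly factors. Replicate numbers follow the order of deposition and pair nothing, so the shared number links no libraries.

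The size of this pattern was given by the median deviation of the nuclear subunits from each gene's mean over the 6 libraries, in log2 units. It was -0.11, 0.20 and -0.18 in the labelled ChemR23-deficient libraries and -0.12, 0.28 and -0.11 in the controls. In control replicate 2 it was 0.44 for complex II and 0.39 for complex III, against 0.26 for complex I, 0.29 for complex IV and 0.25 for complex V. For the mitochondrial genes it was -0.23, 0.22 and -0.18 against 0.03, 0.14 and 0.00. The nuclear subunits of the 5 complexes thus had the same sign within each library, while in control replicate 1 the mitochondrial genes lay just above 0 and the nuclear subunits below.

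Brown adipocyte markers moved with this pattern, as did the white adipocyte, macrophage and Schwann cell markers given below. The 6 markers summed to 581, 11926 and 1321 normalized counts in the labelled ChemR23-deficient libraries and to 4348, 12249 and 1289 in the controls, so replicate 2 was again highest in each group. Ucp1, the uncoupling protein that defines brown adipocytes, was at 7.60, 7079 and 5.05 against 1711, 5365 and 0. Elovl3 was at 0 in replicates 1 and 3 of the labelled ChemR23-deficient group and in control replicate 3, and Cox8b was at 0 in labelled ChemR23-deficient replicate 3. Control replicate 1 had the third highest sum and yet a median deviation of the nuclear subunits of -0.12, below 0. The fat and muscle isoforms set aside by the rule were at 13.3, 501 and 10.1 against 163, 508 and 9.02 (Cox7a1) and at 3.80, 1069 and 0 against 330, 1383 and 38.1 (Cox8b). White adipocyte markers (6 genes) summed to 2013, 20357 and 1710 against 9726, 64034 and 15120, again highest in replicate 2 of each group. The same held for macrophage markers (27843, 37865 and 11719 against 9658, 12321 and 9638). It also held for Schwann cell markers (4 genes; 175, 246 and 142 against 169, 251 and 168). No other marker set was highest in replicate 2 of both groups. Cardiac markers summed to 261 to 491 and skeletal muscle markers to 109 to 275 in the 6 libraries. The part of RNA from any of these cell types in the pattern was not tested. With replicate 2 of both groups left out, the median difference of the nuclear subunits was 0.00, and with log2 Ucp1 as a covariate it was 0.01, both settings chosen after seeing the data.

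**Figure D4:**
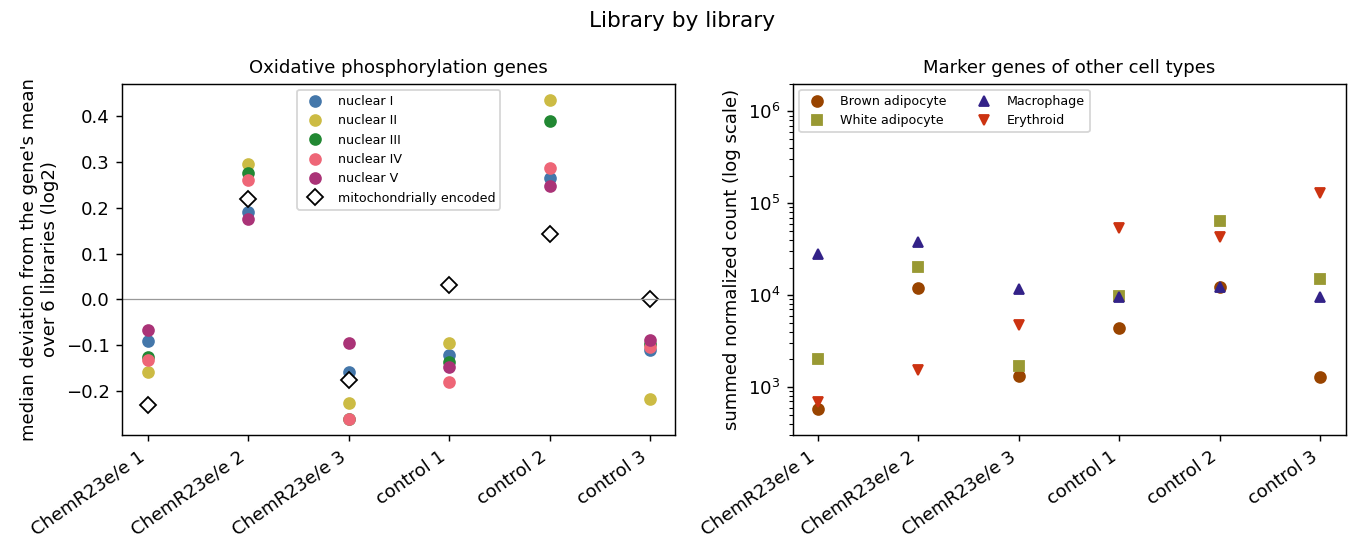
Left, the median deviation of the members from each gene's mean over the 6 libraries (log2), by complex for the nuclear subunits and for the mitochondrially encoded genes; replicate 2 lies above 0 in both groups, at 0.20 and 0.28 for all nuclear subunits. Right, summed normalized counts (log scale) of marker genes of 4 other cell types in the same libraries. The brown adipocyte, white adipocyte and macrophage sums are highest in replicate 2 of each group, and the erythroid sum is not.

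Related genes from lists outside the rule were read the same way. Of 114 genes tested in these lists, 0 were called in limma, DESeq2 or edgeR, and 3, 2 and 5 had an unadjusted p under 0.05 by these tools, beside 12.2, 7.64 and 13.6% of all genes. Of 13 tricarboxylic acid cycle genes, 12 were highest in replicate 2 of both groups, with a median log2 difference of -0.09. Citrate synthase, Cs, the entry enzyme of that cycle, stood at 5867, 7831 and 6582 against 6732, 9318 and 5896. A list of 13 genes for electron carriers held cytochrome c (Cycs), cytochrome c1 (Cyc1) and genes for making ubiquinone (Pdss and Coq genes). Of these 13 (median -0.02) 10 showed the pattern, among them Cycs, at 1556, 2631 and 1623 against 1744, 3244 and 1486. Of 7 outer membrane genes 6 showed it, of 39 further assembly genes 20 and of 14 glycolysis genes 7. Of 15 genes of mitochondrial DNA maintenance and transcription only 2 did, and Tfam, which packages mitochondrial DNA, stood at 875, 886 and 806 against 866, 786 and 939. Of 13 regulators (median -0.05) 5 did. Groups did not overlap for 40% of the 15 maintenance and transcription genes (2 higher and 4 lower in the labelled ChemR23-deficient libraries). They did not overlap for 23.1% of the regulators (3 higher), beside 17% of all genes, and overlapped for every gene tested in the other lists. Hif1a, the oxygen-sensitive transcription factor, had the lowest limma p in these lists, at 7943, 8580 and 8797 against 5423, 7791 and 6160. Its groups did not overlap, all labelled ChemR23-deficient libraries being higher, and the log2 difference was 0.40 (SE 0.13, limma adjusted p 0.263). Ppargc1a, the coactivator of mitochondrial biogenesis, stood at 150, 179 and 108 against 216, 214 and 161, with overlapping groups and a log2 difference of -0.45 (SE 0.22, limma adjusted p 0.461).

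The promoters of the nuclear subunits were searched for motifs of factors known to act on respiratory genes. RefSeq windows (GRCm38.p6, 250 bases before to 50 after the start) were found for 63 of 75 subunit symbols, giving 68 windows. The nuclear respiratory factor motif GCGCATGC, on either strand, was in 14.7% of these and in 2.71% of all 32851 windows. The shares were 7.35 and 3.89% for the ETS motif CCGGAAGT, 14.7 and 2.75% for the YY motif AAGATGGC, and 10.3 and 4.72% for the oestrogen-related receptor motif AAGGTCA. Any of the 4 was in 42.6 and 13.3%. The 32851 windows were not restricted to genes expressed here. A match is a description of these letters and not a bound site, and a link between motifs and the pattern between libraries was not tested. Ndufa6 and Uqcrc1 are printed as examples, with the nuclear respiratory factor motif in capitals. It is on the reverse strand in Ndufa6, and in Uqcrc1 a match on each strand overlaps the other.

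Ndufa6 promoter, chr15:82354242-82354541, minus strand: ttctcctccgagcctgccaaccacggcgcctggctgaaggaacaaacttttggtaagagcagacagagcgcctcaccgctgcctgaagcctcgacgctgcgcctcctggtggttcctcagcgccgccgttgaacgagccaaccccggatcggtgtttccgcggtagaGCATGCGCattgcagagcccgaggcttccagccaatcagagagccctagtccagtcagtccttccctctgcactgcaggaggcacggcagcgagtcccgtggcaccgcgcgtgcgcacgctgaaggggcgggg
Uqcrc1 promoter, chr9:108936398-108936697, plus strand: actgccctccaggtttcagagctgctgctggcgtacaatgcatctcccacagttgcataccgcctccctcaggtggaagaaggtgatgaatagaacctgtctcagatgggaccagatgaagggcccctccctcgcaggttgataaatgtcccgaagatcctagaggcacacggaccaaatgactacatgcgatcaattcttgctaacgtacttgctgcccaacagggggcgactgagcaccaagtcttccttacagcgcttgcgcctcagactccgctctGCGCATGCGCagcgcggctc

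Both genes were highest in replicate 2 of each group, as were 74 of the 75 nuclear subunits tested. Uqcrc1 stood at 3862, 4898 and 3963 against 3864, 5463 and 3476, with overlapping groups and a log2 difference of 0.01 (SE 0.17, limma adjusted p 0.990).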

How the data were processed

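TruSeq Stranded mRNA libraries were sequenced as paired 50-base reads, as the labels' protocols state. The build in the submitters' processing notes is GRCm38, and the tools are DESeq2 1.36.0, R 4.2.0, bcl2fastq 2.20, featureCounts 2.0.1 and HISAT2 2.2.1. No source used here gives the annotation, the strand setting or the handling of multiply placed reads. The deposited table holds a signal per library: read counts that the authors divided by a size factor (shown by its values). Of the authors' own comparison, the deposited log2 fold change, opposite in sign to the one used here, and the deposited adjusted p-value were read.

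In each library 100% of values were whole multiples, within 0.001, of the value of 1 read, so reads were recovered (30887855 to 38600604). Exon lengths, positions and shared 50-base windows come from GENCODE M21 (GRCm38). limma 3.58.1 (trend) was fitted to log2(normalized count + 1) over 20669 genes, those whose mean reached 1, two-sided, with Benjamini-Hochberg adjustment. This scale understates changes of low genes. DESeq2 1.42.0 and edgeR 4.0.16 on recovered reads were alternatives, beside another normalization, pseudocounts, filters and left-out libraries. R 4.3.3 was used. The limma step was run on simulated counts with 200 changed genes and the same noise setting for every gene. That checks the working of the step and not its power in these libraries. Intervals cover the spread between libraries.

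The members, gene lists and tests were chosen with earlier results of these data known. The text names all mitochondrial members, the succinate dehydrogenase genes, the listed isoform pairs and c subunit genes, the members with the lowest p among those whose groups do not overlap, and in each complex those with the lowest p, extreme differences and the highest count. Ndufs1, Ndufs8, Ndufv1, Ndufaf7, Uqcrb, Uqcrc2, Uqcrfs1, Cox5a and Atp5a1, and the related genes outside the rule, were chosen after their values were seen. All counts include 1 member whose individual result is left out of the text and of the plot of group differences.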

Additional observations from a re-analysis of the deposited data

How the results depend on the processing

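No member was called under any of the alternatives. The number of genes called over the whole table, 28, was 91 with no filter on low values, 1 with a mean of at least 10, 1 by edgeR, 713 by DESeq2, 0 in the libraries with Y-linked expression and 0 to 434 when each library was left out in turn. With log2 Ucp1 as a covariate, chosen after seeing the data, it was 47. The cause was not tested. The median difference of the mitochondrial genes was -0.34 to -0.056 and that of the nuclear subunits -0.15 to 0.11 when each library was left out, so the sign of the nuclear median depends on single libraries: it was 0.11 without control replicate 2 and -0.15 without labelled ChemR23-deficient replicate 2. In the libraries with Y-linked expression, which leave 1 labelled ChemR23-deficient library assumed to vary like the controls, the medians were -0.30 for complex IV, -0.31 for complex III, -0.26 for complex II, -0.25 for the mitochondrial genes and -0.19 for all nuclear subunits. At an unadjusted p under 0.05, limma found 7 of 103 members (6.80%, beside 10.6% of all genes) with replicate 2 of both groups left out, 8 (7.77%, beside 9.97%) without labelled ChemR23-deficient replicate 2, 5 (4.85%, beside 12.3%) without control replicate 2 and 7 of 101 (6.93%, beside 6.24%) in the libraries with Y-linked expression. No paired analysis was possible because the labels carry no replicate numbers.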
